A study of Mus musculus with 12 samples.

Results

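The genes described here encode matrix metalloproteinases (Mmp), ADAMTS proteases (Adamts) and the tissue inhibitors of metalloproteinases (Timp), measured in sorted mouse bone progenitor cells with and without JUN induction. Members were taken by name alone: every gene whose symbol is Mmp, Adamts or Timp followed by a number, and that had a microarray probe set annotated with that symbol only. This gave 37 genes, made up of 18 Mmp, 15 Adamts and 4 Timp genes, out of 18193 genes named in this way. The 37 genes had 70 of the 34945 probe sets that carry a single symbol, and 19 of them had several. Each gene is represented by its probe set of highest mean over the 12 arrays. A gene was tested when at least 2 arrays had that probe set above their median, which held for 26 members (11 Mmp, 12 Adamts and 3 Timp) among 12496 genes in all. Values are log2 expression values, so a difference of 1 is a factor of 2, and errors given with a difference are standard errors of the fit.

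The study asked how osteoprogenitors of the mouse skeleton respond to 2 days of JUN induction. Cells of 3 populations, labelled SSC, CSP and Thy, were sorted by flow cytometry from limb bones, skull cap, shoulder blade, vertebrae and ribs of JUN-inducible mice kept on a regular diet. JUN was switched on in the offspring through doxycycline in the drinking water of the mother. Each population has 2 arrays with JUN and 2 labelled -JUN, read here as without induction, which makes 6 groups. The populations called CSP and Thy on the samples are written BCSP and Thy+ in the series' design. Titles name 5 mice: mice 4 and 7 gave the arrays with JUN of every population, mouse 3 gave 1 array without JUN of every population, and the remaining arrays without JUN came from mouse 10 in SSC and from mouse 3b in CSP and Thy. Arrays below are given in that order, as mouse 3 and mouse 10 or 3b without JUN, then mice 4 and 7 with JUN. Not given in the sources used here are the age and strain of the mice, the promoter of the transgene and whether the arm without JUN received doxycycline. P-values measure the spread between these arrays.

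Matrix metalloproteinases are zinc enzymes that cleave collagens, proteoglycans and other proteins outside the cell. They are made as inactive precursors, are activated by removal of a propeptide, and are blocked by the Timp proteins, which bind the active site. ADAMTS proteases are secreted relatives that cut aggrecan, process procollagens or act on microfibrils. In the growth plate, Mmp13 and Mmp9 take part in removing cartilage matrix as bone replaces it. JUN is a subunit of AP-1, a transcription factor that binds the sequence TGAGTCA, and several Mmp genes are textbook AP-1 targets.

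The AP-1 motif was looked for near the start sites of the members, and the stretches that hold it are shown here. RefSeq start-site windows of the build GRCm38.p6, each from 250 bases before to 50 bases after an annotated start, were found for 23 of the 37 members, 13 of them tested. The letters TGAGTCA were searched on both strands (TGACTCA on the printed strand is the same motif on the other one). They were present for 7 members, as against 5.95% of the 27025 symbols in the table and 5.2% of its 32851 windows. The 45 bases around each match are printed 5′ to 3′ on the gene's strand, with the motif in capitals.
Mmp13: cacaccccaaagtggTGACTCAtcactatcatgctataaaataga
Mmp12: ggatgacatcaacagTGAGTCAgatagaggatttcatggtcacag
Mmp1b: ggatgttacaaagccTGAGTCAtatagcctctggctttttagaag
Mmp3: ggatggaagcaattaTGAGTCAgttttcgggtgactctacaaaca
Mmp1a: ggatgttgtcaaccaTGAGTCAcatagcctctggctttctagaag
Mmp10: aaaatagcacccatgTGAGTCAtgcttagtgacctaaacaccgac
Mmp7: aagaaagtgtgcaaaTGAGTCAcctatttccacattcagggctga
The shown bases lie at chr9:7272464-7272508 for Mmp13, chr9:7347315-7347359 for Mmp12, chr9:7445761-7445805 for Mmp3, chr9:7464053-7464097 for Mmp1a, chr9:7502264-7502308 for Mmp10 and chr9:7692012-7692056 for Mmp7, all on the plus strand, and at chr9:7388090-7388134 on the minus strand for Mmp1b. All 7 genes belong to a run on chromosome 9 that holds 10 symbols of the family, from Mmp13 to Mmp7, of which 9 were measured. The motif begins 35 bases before the start of Mmp13, 44 before that of Mmp12, 46 before that of Mmp3, 63 before those of Mmp10 and Mmp7, 73 before that of Mmp1a and 93 before that of Mmp1b. Mmp12 and Mmp7 each have 1 further window without it. A match describes these letters and does not show that AP-1 binds there.

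**Figure D1:**
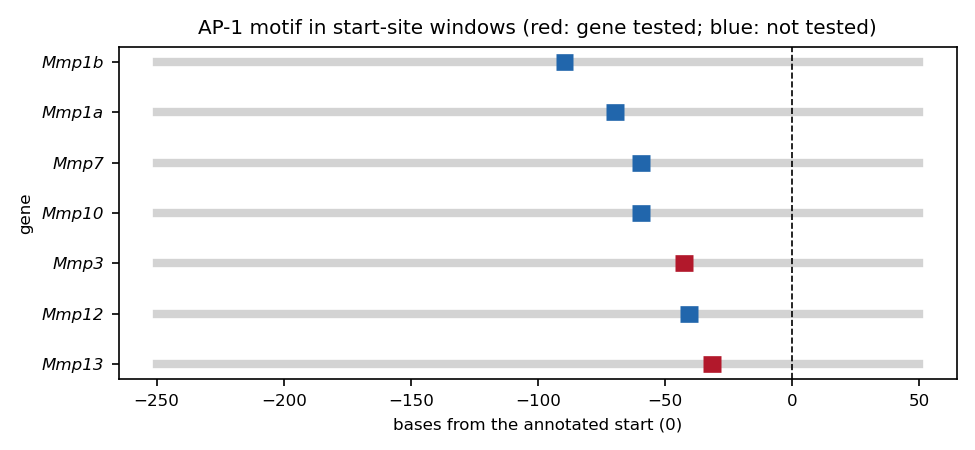
Position of the AP-1 motif in the start-site windows of the 7 genes that hold it, in bases from the annotated start at 0, with the window drawn as a grey bar. Every motif lies between 93 and 35 bases before the start; red marks Mmp13 and Mmp3, which were bright enough to be tested, and blue the other 5 genes.

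Only 2 of these 7 genes, Mmp13 and Mmp3, were tested. The other 5 were dim in every array, with and without JUN. The interstitial collagenase genes Mmp1a and Mmp1b read 4.06 to 4.81 and 4.12 to 4.80, and the macrophage elastase gene Mmp12 read 3.79 to 4.39. Mmp10, which encodes a stromelysin, lay between 5.70 and 6.49, and Mmp7, which encodes matrilysin, between 6.07 and 6.82. Array medians were 7.65 to 7.76, so none of these 5 genes reached the middle of its array. Mmp8, the neutrophil collagenase gene (4.86 to 5.73), and the enamel protease gene Mmp20 (5.63 to 6.39), both of the same run, were also below it throughout, as were Adamts18 (5.60 to 7.45) and the inhibitor gene Timp4 (6.19 to 7.58). Adamts6 lay above the median in no array but that of mouse 7 in CSP, at 8.67 against 5.54 to 7.32 elsewhere, and Adamts20 in none but that of mouse 10 in SSC, at 8.74 against 4.19 to 7.32. These 11 genes were not tested.

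The arrays differed in ways that touch the values below. Thy1, the surface marker behind the name Thy, read 12.80 to 13.30 in the Thy arrays and 7.28 to 9.63 in the others, and the alpha-V integrin gene Itgav, used to sort skeletal stem cells, read 11.58 to 13.33 in every array. The pan-leukocyte gene Ptprc was dim throughout (5.45 to 6.54), but other leukocyte genes were not. Of 8 macrophage and leukocyte genes, Ptprc among them, 5 were bright enough to be tested. Lyz2 read 7.42 to 9.45 and Cd68 7.28 to 9.38, while the mean of the 8 was 6.81 to 7.49. The part of such cells was not tested. The mean of 24 poly-A control probe sets, which read RNAs commonly spiked in before labelling, was 8.47 to 11.24 in SSC, 9.95 to 11.77 in CSP and 11.33 to 12.28 in Thy. In SSC it was higher with JUN (11.24 and 9.95) than without (8.47 and 9.11). Xist, expressed from the inactive X chromosome, read 12.49 to 13.20 in the 3 arrays of mouse 3 and 6.11 to 7.29 in the others. Of the 4 SSC arrays, the 3 from mice 3, 7 and 10 carry titles of another form than the rest. Jun itself differed between the arms by 0.32, -0.43 and -0.27 in SSC, CSP and Thy (SE 0.41, adjusted p = 0.804, 0.995 and 0.984), and it is not known whether its probe sets read the transgene. The values are levels in sorted cells in bulk, where fewer cells of a type and less RNA per cell cannot be told apart.

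**Figure D2:**
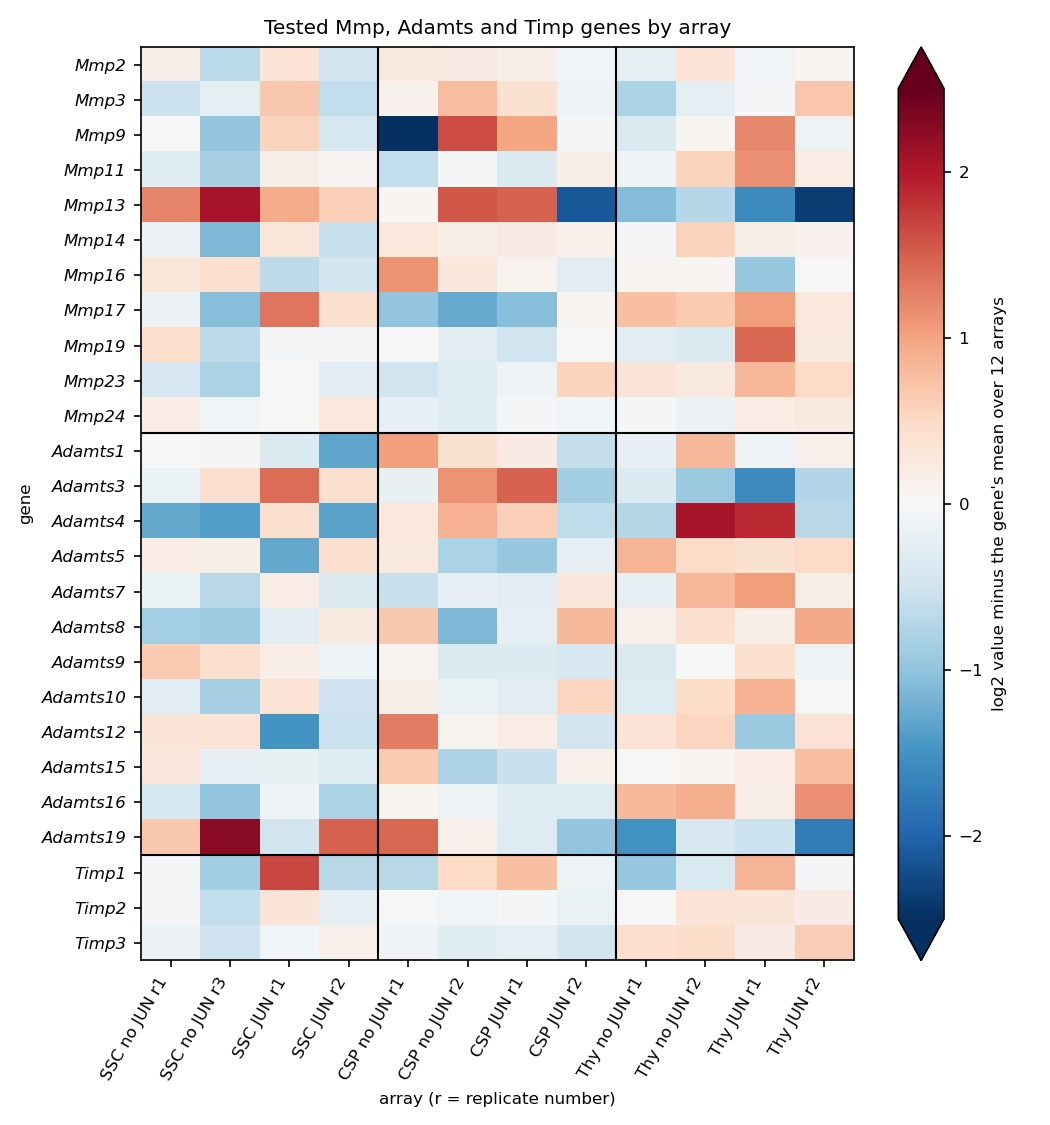
Log2 value of each of the 26 tested genes in each of the 12 arrays, minus the gene's mean over the arrays, with colours cut at 2.5 in both directions. Black lines part the 3 populations and the Mmp, Adamts and Timp genes; Mmp13 is high in SSC and low in Thy, and Adamts16 and Timp3 are high in Thy.

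The populations were compared first, with 4 arrays against 4. Between SSC and Thy the 26 members lay lower in SSC by a median of -0.41, against -0.09 over all genes tested, and 1 member, Adamts16, passed the threshold of an adjusted p of 0.05. Over all genes 0.392% passed in this comparison, 49 of 12496. At an unadjusted p under 0.05 stood 3 members higher and 7 lower in SSC, against 5.86% and 11.8% of all genes. Among the former Adamts19 was above the array median in no Thy array, and among the latter Adamts8 in no SSC array. These genes thus entered the tests only through populations where they are higher. Between CSP and Thy 0 members passed, where 1.01% of all genes did, and 2 higher and 7 lower in CSP stood at an unadjusted p under 0.05, against 4.10% and 7.86% of all genes. Between SSC and CSP 0 members passed, where 0.432% of all genes did, and 2 higher and 0 lower in SSC stood at an unadjusted p under 0.05, against 3.71% and 2.79%. Both comparisons with Thy share the Thy arrays. The arrays did not overlap for 2 members higher and 3 lower in SSC than Thy (2.42% and 5.18% of all genes), for 0 higher and 5 lower in CSP than Thy (1.82% and 4.30%), and for 0 in either direction between SSC and CSP (2.20% and 1.86%).

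**Figure D3:**
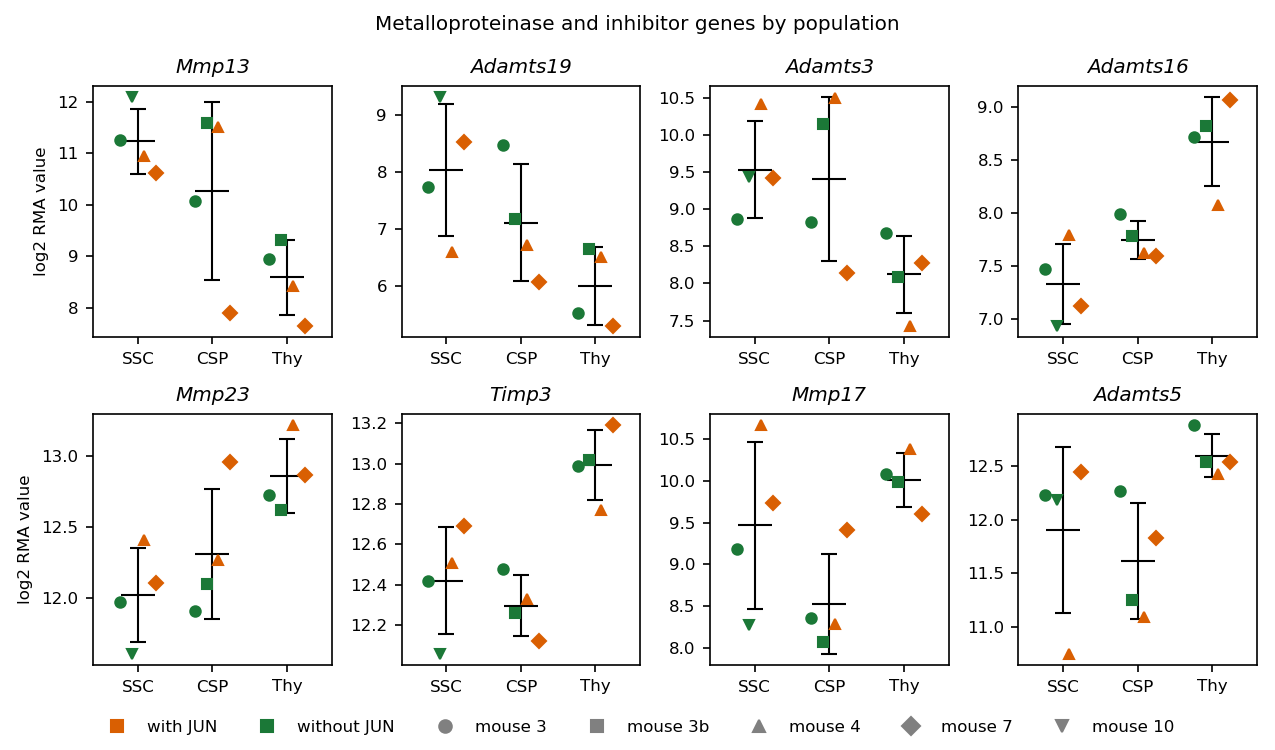
Log2 values of 8 members by population; each point is an array, its colour gives the arm and its shape the mouse, and black lines are the mean and SD over 4 arrays. Axes do not start at 0 and differ between panels. Mmp13 and Adamts3 lie higher in every SSC array than in every Thy array, and Adamts16, Mmp23 and Timp3 lie lower.

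Mmp13, the collagenase of hypertrophic chondrocytes and osteoblasts, had the widest difference of the tested members between SSC and Thy. It read 11.25, 12.08, 10.95 and 10.62 in SSC. The CSP arrays gave 10.07, 11.58, 11.50 and 7.90. In Thy it read 8.95, 9.32, 8.43 and 7.65. Every SSC array lay above every Thy array, while the CSP arrays spanned both, with the array of mouse 7 at the level of Thy. The means were 11.23 ± 0.63, 10.26 ± 1.72 and 8.59 ± 0.73 (SD, n = 4). SSC exceeded Thy by 2.64 ± 0.61 (adjusted p = 0.0879) and CSP exceeded Thy by 1.68 ± 0.61 (adjusted p = 0.297), and neither passed. Over the alternatives tried, the adjusted p of the first ranged from 0.0276 to 0.681. It passed with array weights and when mouse 4 or either CSP array with JUN was left out. The second was 2.37 and passed without the CSP array of mouse 7 (adjusted p = 0.036, range 0.036 to 0.719), and was 1.02 without the CSP array of mouse 4.

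Cartilage markers also differed between these arrays. Col10a1, the collagen gene that defines hypertrophic cartilage, read 11.82, 11.14, 12.85 and 9.21 in SSC and 6.17, 12.90, 12.06 and 7.24 in CSP. In Thy it read 6.30 to 8.28. Other hypertrophic chondrocyte genes did not all follow it. Of 5 tested, Col10a1 among them, 2 lay higher in SSC than in Thy and 2 higher in CSP. Their median differences from Thy were -0.29 in SSC and -0.24 in CSP. The mean of 13 chondrocyte genes, all of them tested, was 11.09, 10.15, 13.63 and 10.51 in SSC, 10.17, 13.48, 13.62 and 10.62 in CSP, and 8.82 to 10.12 in Thy. In CSP the arrays of mice 3b and 4 were thus high in Mmp13, in Col10a1 and in the chondrocyte genes, and the array of mouse 7 was low in all of them. The CSP array of mouse 3 was lowest in Col10a1 and in the chondrocyte genes, with Mmp13 in between. In SSC the highest Mmp13 value belonged to mouse 10, which had the lowest chondrocyte mean. The mean of 6 osteoblast genes was 10.92, 10.89, 12.01 and 10.82 in SSC, 9.25, 11.15, 10.96 and 8.63 in CSP, and 9.44 to 9.87 in Thy. In CSP these means had the same order of arrays as Mmp13, and in SSC they did not. Of the 6 genes, 4 lay higher in SSC than in Thy and 3 higher in CSP, with median differences of 1.52 and 0.24. The part of these cell types in the Mmp13 difference was not tested.

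**Figure D4:**
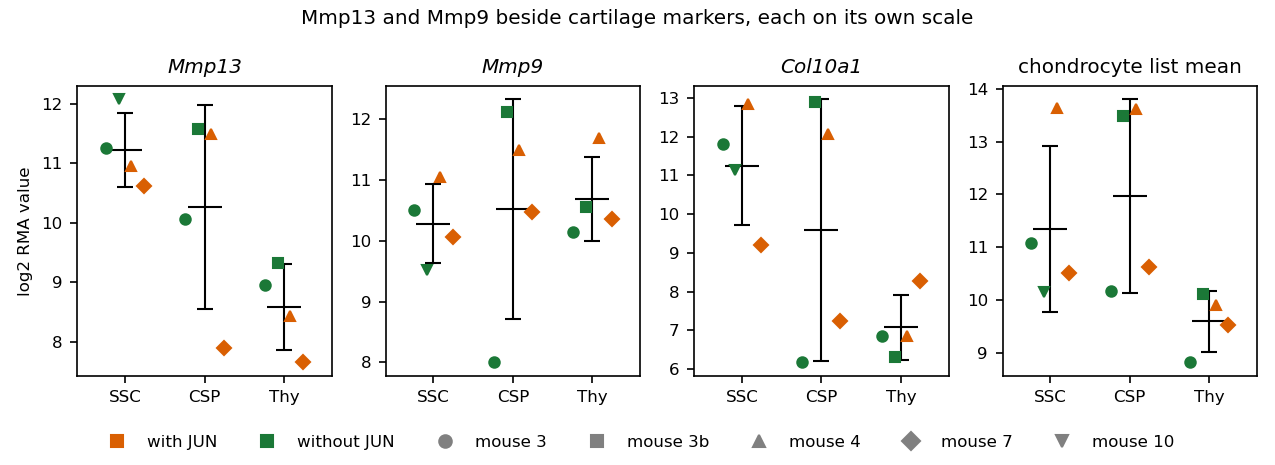
Log2 values of Mmp13, Mmp9, Col10a1 and the mean of 13 chondrocyte genes by population, each panel on its own scale; each point is an array, coloured by arm and shaped by mouse, with the mean and SD over 4 arrays in black. The CSP arrays of mice 3b and 4 are high in all 4 panels, and the Thy arrays are low in Mmp13 and Col10a1 but not in Mmp9.

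The gelatinase genes showed no such step between populations. Mmp9, the gelatinase of osteoclasts and of the growth plate's vascular front, read 10.50, 9.52, 11.05 and 10.06 in SSC. In CSP it read 8.0, 12.12, 11.49 and 10.47, the widest range of a tested member within a population. In Thy it read 10.14, 10.55, 11.70 and 10.36. Its differences between populations were -0.24, -0.41 and -0.17 (SE 0.69). Mouse 4 gave the highest Mmp9 value of SSC and of Thy. Of 9 osteoclast genes beside it, Calcr, Ocstamp, Dcstamp, Atp6v0d2 and Oscar were dim (from 4.41 to 7.49 among them). Acp5 read 7.84 to 9.75, and Ctsk, Itgb3 and Nfatc1, which other cells also express, read 11.81 to 12.60, 10.38 to 12.52 and 9.93 to 12.64. The mean of the 9 was 7.68 to 8.37 in SSC, 7.70 to 8.19 in CSP and 7.96 to 8.33 in Thy. The mean of 8 neutrophil genes, another source of this enzyme, was 6.08 to 7.58, and the part of either cell type was not tested. Mmp2, the gelatinase of mesenchymal cells, was near the top of the scale in every array (13.57 to 14.62) and differed between populations by 0.30 or less (SE 0.25).

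Among the membrane-bound enzymes, Mmp14, which activates the Mmp2 precursor and cuts collagen at the cell surface, averaged 12.85 ± 0.60 in SSC, 13.42 ± 0.06 in CSP and 13.43 ± 0.26 in Thy (SD, n = 4). SSC lay 0.57 and 0.58 below the others (SE 0.27, adjusted p = 0.791 and 0.287). Its lowest value, 12.12, was that of mouse 10 in SSC. Mmp17, whose product is anchored by a lipid, read 9.19, 8.27, 10.67 and 9.74 in SSC. In CSP it read 8.36, 8.07, 8.28 and 9.41, and in Thy 10.08, 9.99, 10.38 and 9.60. Every CSP array was below every Thy array, and the SSC arrays reached into both. The difference was -1.48 ± 0.38 between CSP and Thy (adjusted p = 0.116) and 0.94 ± 0.38 between SSC and CSP (adjusted p = 0.708). The latter was 0.45 without mouse 4 and 0.61 without its SSC array alone. Mmp16, another membrane-type gene, averaged 10.90 in SSC, 11.32 in CSP and 10.81 in Thy. Mmp24, expressed in neurons among other cells, stayed within 9.41 to 9.98 in all arrays.

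Mmp23, which encodes a small membrane-tethered protease, lay lower in SSC than in Thy. It read 11.97, 11.61, 12.41 and 12.11 in SSC. In CSP it read 11.91, 12.10, 12.27 and 12.96, and in Thy 12.73, 12.62, 13.22 and 12.87. No SSC array reached a Thy array, and the CSP array of mouse 7 lay within the range of Thy. The difference of SSC from Thy was -0.83 ± 0.20 (adjusted p = 0.0971), and a second Mmp23 probe set gave -0.47. CSP differed from Thy by -0.55 ± 0.20 (adjusted p = 0.303). The stromelysin-3 gene Mmp11, described in stromal fibroblasts, was lower in SSC and in CSP than in Thy by -0.69 ± 0.27 and -0.65 ± 0.27 (adjusted p = 0.225 and 0.366), with overlapping arrays. Mmp3, or stromelysin-1, averaged 7.18, 7.64 and 7.26 in SSC, CSP and Thy, close to the array medians. Mmp19 averaged 8.70, 8.58 and 9.04, and the differences of both among the populations were at most 0.46 (SE 0.34 and 0.35).

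Adamts16, a protease gene with roles in kidney and gonad, was the member that passed. It read 7.47, 6.94, 7.79 and 7.13 in SSC. The CSP arrays gave 7.99, 7.78, 7.62 and 7.60. In Thy it read 8.72, 8.82, 8.08 and 9.06. All 8 SSC and CSP arrays lay below all Thy arrays, the nearest being mouse 3 in CSP and mouse 4 in Thy. The mean was 7.33 ± 0.38 in SSC against 8.67 ± 0.42 in Thy (SD, n = 4), a difference of -1.34 ± 0.25 (adjusted p = 0.0487), and CSP differed from Thy by -0.92 ± 0.25 (adjusted p = 0.145). The chosen probe set lay above the array median in 7 of 12 arrays, and the second Adamts16 probe set, above it in 8, gave only -0.24 for SSC and 0.02 for CSP against Thy.

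The Adamts16 call stood close to the threshold. With the mouse as a fixed block the difference was -1.18 (adjusted p = 0.217), and over the alternatives tried the adjusted p ran from 0.00441 to 0.784. It was kept without the SSC array or the Thy array of mouse 4 or all arrays of that mouse, and lost when any other array or mouse was left out (adjusted p from 0.0615 to 0.277). It was also lost without the 3 SSC arrays of differing title form (-0.76, adjusted p = 0.784) and with the poly-A controls as a covariate (-1.34, adjusted p = 0.678), under which 0 genes of the whole table passed between SSC and Thy. Beside it, the mean of 7 pericyte and smooth muscle genes was 10.93 to 11.90 in SSC, 10.60 to 11.06 in CSP and 11.76 to 12.45 in Thy. These genes did not move together. Of the 7, 2 (Myh11 and Tagln) lay higher in SSC than in Thy, and 1 was higher in CSP. The median differences from Thy were -0.22 in SSC and -1.16 in CSP, while Rgs5 stood at -3.24 and -2.66. The part of such cells was not tested.

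Adamts3, a procollagen N-proteinase gene, and Adamts19 ran the other way. Adamts3 read 8.86, 9.43, 10.42 and 9.42 in SSC. Its CSP values were 8.83, 10.14, 10.49 and 8.14, and in Thy 8.68, 8.09, 7.43 and 8.28. Every SSC array was above every Thy array, though mouse 3 separated them by little, and the CSP arrays of mice 3b and 4, high in chondrocyte genes, were again the high ones. The difference from Thy was 1.41 ± 0.51 in SSC and 1.28 ± 0.51 in CSP (adjusted p = 0.200 and 0.353), and without mouse 4 it was 0.88 and 0.69. A second, dim Adamts3 probe set gave -0.01 between SSC and Thy.

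Adamts19, an ADAMTS gene with a role in heart valves, read 7.73, 9.31, 6.59 and 8.52 in SSC, 8.48, 7.18, 6.72 and 6.06 in CSP, and 5.53, 6.65, 6.51 and 5.30 in Thy. The SSC and Thy arrays overlapped through the SSC array of mouse 4 alone. SSC exceeded Thy by 2.04 ± 0.53 (adjusted p = 0.116, range over the alternatives 0.0267 to 1). Without the SSC array of mouse 4 the difference was 2.42 and passed (adjusted p = 0.0407). The gene was above the array median in 3 arrays only, so most of its values are dim. None of the 3 is a Thy array, so the gene entered the tests only through populations where it is high.

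The genes of the aggrecanases, which cut the proteoglycan core of cartilage, did not pass in any comparison and varied within populations. Adamts4 read 9.87, 9.75, 11.55 and 9.81 in SSC. In CSP it read 11.40, 12.01, 11.74 and 10.50, and in Thy 10.42, 13.21, 13.01 and 10.44. In SSC the array of mouse 4 was the high one, and in Thy those of mice 3b and 4 were. SSC lay -1.53 ± 0.68 from Thy (adjusted p = 0.272). Adamts5, the main aggrecanase of mouse joint cartilage, read 12.23, 12.18, 10.75 and 12.44 in SSC, 12.27, 11.25, 11.09 and 11.83 in CSP and 12.88, 12.54, 12.42 and 12.54 in Thy. CSP was below Thy without overlap, by -0.98 ± 0.35 (adjusted p = 0.281), and the 2 other bright Adamts5 probe sets gave -0.50 and -0.42. Between SSC and Thy the chosen Adamts5 probe set gave -0.69, but those 2 gave 0.26 and 0.23, so the direction depends on the probe set.

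Of the other Adamts genes, Adamts1, which also cuts versican, averaged 11.06 in SSC, 11.71 in CSP and 11.61 in Thy, with all 3 differences at an adjusted p of 0.352 or more. Adamts9, a versican-cutting protease gene, was 0.54 ± 0.23 higher in SSC than in CSP (adjusted p = 0.716). Adamts7 and Adamts12, whose products cut cartilage oligomeric matrix protein, averaged 10.24 and 11.23 in SSC, 10.30 and 11.84 in CSP and 10.94 and 11.66 in Thy. Adamts7 lay -0.70 ± 0.29 from Thy in SSC and -0.65 ± 0.29 in CSP (adjusted p = 0.239 and 0.407). Adamts8 lay -0.87 ± 0.37 from Thy in SSC (adjusted p = 0.252). It was above the array median in 4 arrays only, all of CSP or Thy, and its SSC values (6.54 to 7.67) are dim. Adamts10, which acts on fibrillin microfibrils, and Adamts15 differed between populations by at most 0.58 and 0.39 in size (SE 0.30 and 0.32).

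Of the inhibitors, Timp3, the member that binds to the matrix and also blocks ADAMTS enzymes, was lower in SSC and CSP than in Thy. It read 12.42, 12.06, 12.51 and 12.69 in SSC. Its CSP values were 12.48, 12.26, 12.33 and 12.12, and in Thy 12.99, 13.02, 12.77 and 13.19. No SSC or CSP array reached the lowest Thy array, that of mouse 4. The differences were -0.57 ± 0.19 and -0.70 ± 0.19 (adjusted p = 0.176 and 0.145), which did not pass. All 4 Timp3 probe sets had the same direction, from -0.84 to -0.57 for SSC and from -0.97 to -0.61 for CSP. Timp2, which takes part in Mmp2 activation by Mmp14, read 13.45 to 14.38 in SSC, 13.89 to 14.05 in CSP and 14.06 to 14.40 in Thy. CSP lay below Thy without overlap, by a narrow margin, and by -0.29 ± 0.20 (adjusted p = 0.591). Timp1, a secreted inhibitor, averaged 10.03, 10.12 and 9.89 and differed between populations by 0.23 or less (SE 0.48).

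The comparison of the arms, with 2 arrays against 2 in each population, called no member. In SSC, CSP and Thy 0 of 26 members passed in limma, as did 0% of all 12496 genes in each. At an unadjusted p under 0.05 stood 3 members in SSC, 0 in CSP and 1 in Thy, where 6.51%, 2.28% and 3.02% of all genes did. Averaged over the populations 0 members passed, again with 0% of all genes, and 5 stood at an unadjusted p under 0.05 (12.6% of all genes). Each mouse lies in 1 arm only and most gave several arrays, so p-values and standard errors of the averages may be too low. With 1 value per mouse 0 members passed as well. The median difference with JUN was 0.35 over the members in SSC, -0.15 in CSP and 0.03 in Thy, against 0.08, 0.07 and 0.04 over all genes. For each member the standard error lay between 0.27 and 1.06 within a population. The arrays did not overlap for 5 members higher and 5 lower with JUN in SSC (22.7% and 15.7% of all genes), for 2 and 5 in CSP (19.3% and 11.9%), and for 6 and 3 in Thy (17.9% and 10.8%).

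**Figure D5:**
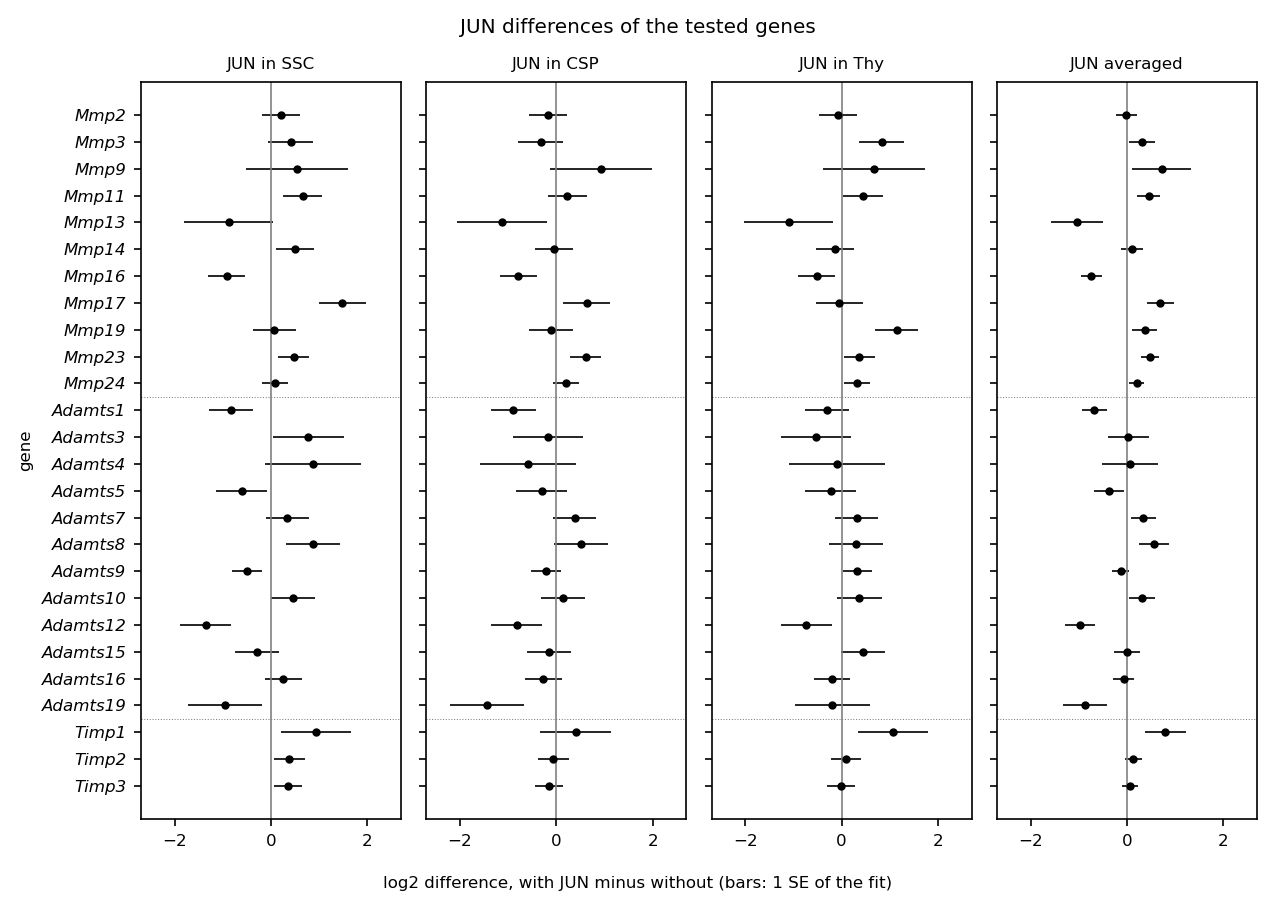
Log2 difference with JUN minus without for the 26 tested genes in SSC, CSP and Thy and averaged over them; points are estimates of the fit and bars are 1 standard error. Mmp16 and Mmp13 are among several genes below 0 in every panel, and Mmp23 among several above 0, and 0 of the differences passed the threshold. The direction of Mmp13 in CSP is set by the array of mouse 7 alone.

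The tested genes with the AP-1 motif shown above, Mmp13 and Mmp3, had average JUN differences of opposite sign, neither of which passed. Mmp13, from the values given above, was lower with JUN by -0.88 in SSC, -1.13 in CSP and -1.10 in Thy (SE 0.93, adjusted p = 0.771, 0.995 and 0.984). Its arms overlapped in CSP and were apart elsewhere. In CSP the array of mouse 7, at 7.90, alone set the direction, since that of mouse 4, at 11.50, lay between the arrays without JUN. Without the array of mouse 7 the difference in Thy was -0.71. The average was -1.04 ± 0.54 (adjusted p = 0.413). Mmp3 read 6.83 and 7.13 without JUN and 8.03 and 6.75 with it in SSC. It read 7.47 and 8.13 without and 7.74 and 7.23 with JUN in CSP, and 6.58 and 7.11 without and 7.31 and 8.05 with JUN in Thy. The arms overlapped in SSC and CSP and were apart in Thy, where the difference was 0.83 ± 0.47 (adjusted p = 0.984) and 0.46 without the array of mouse 7. The average was 0.31 ± 0.27 (adjusted p = 0.569).

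The chosen Mmp16 probe set had lower values with JUN in all 3 populations, without overlap. It read 11.31 and 11.42 without JUN and 10.36 and 10.53 with JUN in SSC. The values were 12.14 and 11.30 against 11.10 and 10.75 in CSP, and 11.08 and 11.05 against 10.07 and 11.02 in Thy. The separation was wide in SSC and was set in Thy by mouse 4, since mouse 7 lay just under the arrays without JUN. The differences were -0.92, -0.79 and -0.52 (SE 0.38, adjusted p = 0.689, 0.995 and 0.984). That in Thy was -0.04 without mouse 4 and -0.99 without mouse 7, and that in CSP was -0.37 without mouse 3 and -1.21 without mouse 3b. The average was -0.74 ± 0.22 (adjusted p = 0.395, range over the alternatives 0.0762 to 1). The 3 other Mmp16 probe sets, each above the array median in 11 or 12 arrays, gave smaller averages of -0.37, -0.15 and -0.07. Of these, 1 stayed below 0 in every population, and the other 2 gave 0.20 and 0.06 in Thy, so the separation depends on the probe set.

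The chosen Mmp23 probe set had higher values with JUN in all 3 populations, also without overlap. From the values given above, the differences were 0.47, 0.61 and 0.37 (SE 0.32, adjusted p = 0.693, 0.995 and 0.984). That in CSP was 0.26 without the array of mouse 7 and 0.95 without that of mouse 4. The average was 0.48 ± 0.19 (adjusted p = 0.395), and the second Mmp23 probe set gave 0.20, 0.58 and 0.40 in SSC, CSP and Thy. Mmp17 was higher with JUN in SSC by 1.48 ± 0.49 (adjusted p = 0.689), where both JUN arrays lay above both others. In CSP the difference was 0.63 ± 0.49, with 0.06 without the array of mouse 7 and 1.20 without that of mouse 4, and in Thy it was -0.05 ± 0.49. The largest gap between these 3 values, 1.52, did not pass as a difference of the JUN effect between populations (adjusted p = 1). Mmp11 in SSC stood at 0.66 ± 0.41 with its arms apart (adjusted p = 0.689), and at 0.40 without the array of mouse 10.

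Mmp19, a widely expressed protease gene, had its difference in Thy, where it read 8.51 and 8.42 without JUN and 10.20 and 9.01 with JUN. Mouse 4 was well above the rest, and the arms did not overlap. The difference was 1.14 ± 0.45 (adjusted p = 0.984). It was 0.54 without that array and 1.73 without the array of mouse 7. In SSC and CSP it was 0.07 and -0.11. A second, dim Mmp19 probe set gave -0.01 in Thy. Mmp9 differed by 0.55, 0.92 and 0.68 (SE 1.06), and Mmp2 and Mmp14 by at most 0.50 (SE 0.39 and 0.40). Whether the effect of JUN differed between populations was tested for each member and gave 0 calls, and 0 members at an unadjusted p under 0.05, with 0% and 1.14% of all genes.

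Of the Adamts genes, Adamts12 had lower values with JUN by its chosen probe set. It read 11.90 and 11.91 without JUN and 10.07 and 11.04 with it in SSC, 12.86 and 11.64 against 11.75 and 11.10 in CSP, and 11.92 and 12.11 against 10.64 and 11.94 in Thy. The arms were apart in SSC and overlapped in CSP and Thy, where mouse 4 alone was low in Thy. The differences were -1.35, -0.82 and -0.73 (SE 0.53, adjusted p = 0.689, 0.995 and 0.984). That in SSC was -0.86 without mouse 4, and that in Thy was -0.08 without mouse 4 and -1.38 without mouse 7. The average was -0.97 ± 0.31 (adjusted p = 0.395). A second, dim Adamts12 probe set gave -0.70 in SSC, -0.48 in CSP, 0.39 in Thy and -0.26 on average.

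Adamts1 read 11.46 and 11.49 without JUN and 11.11 and 10.17 with it in SSC, 12.48 and 11.84 against 11.66 and 10.87 in CSP, and 11.26 and 12.28 against 11.34 and 11.58 in Thy. The arms were apart in SSC and CSP and overlapped in Thy. The differences were -0.83, -0.89 and -0.31 (SE 0.46), with an average of -0.68 ± 0.26 (adjusted p = 0.395). Without mouse 7 they were -0.36 in SSC, -0.50 in CSP and -0.43 on average. Without mouse 4 the difference was -1.30 in SSC, and without mouse 3 it was -0.57 in CSP. Adamts8 stood at 0.87 ± 0.56 in SSC, where every value was below its array median, and at 0.52 ± 0.56 in CSP. The latter ran from -0.38 without the array of mouse 3b to 1.42 without that of mouse 3. Adamts19 in CSP stood at -1.44 ± 0.77 (adjusted p = 0.995), with its arms apart, and at -0.79 without mouse 3. Adamts4 stood at 0.87 ± 1.0 in SSC, and its second probe set at -0.63, so its direction depends on the probe set.

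Among the inhibitors Timp1, an AP-1 target gene in other cells but without the motif in its searched start-site window, followed mouse 4. It read 9.97 and 9.15 without JUN and 11.69 and 9.31 with it in SSC, 9.32 and 10.51 against 10.76 and 9.88 in CSP, and 9.07 and 9.63 against 10.87 and 9.98 in Thy. Mouse 4 was highest in every population, while mouse 7 lay among or near the arrays without JUN, and the arms were apart in Thy alone. The differences were 0.94, 0.40 and 1.07 (SE 0.73, adjusted p = 0.712, 0.995 and 0.984). The average of 0.80 ± 0.42 (adjusted p = 0.413) was 0.11 without mouse 4 and 1.49 without mouse 7, where it passed (adjusted p = 0.0432, range over the alternatives 0.0432 to 1). The difference in Thy was 0.62 without mouse 4. Mouse 4 also had the highest chondrocyte means among the arrays with JUN, 13.63 in SSC, 13.62 in CSP and 9.91 in Thy. Without JUN, mouse 3b had chondrocyte means of 13.48 in CSP and 10.12 in Thy, with Timp1 at 10.51 and 9.63. In Thy its chondrocyte mean was thus above that of mouse 4, and its Timp1 below. The part of these cells was not tested. Timp3 was higher with JUN in SSC by 0.36 ± 0.29, with the arms apart, and Timp2 differed by 0.38 or less (SE 0.32).

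The poly-A controls were higher with JUN in SSC, and with their mean as a covariate 0 members passed for JUN and many differences were smaller. In SSC, Mmp17 stood at 0.78, Mmp11 at 0.22, Mmp16 at -0.11 and Adamts12 at 0.32, the last with its sign turned. Adamts8, dim in SSC, stood at 1.99 there. In CSP, Mmp23 stood at 0.33, Mmp17 at 0.18, Mmp16 at -0.28, Adamts19 at -0.78 and Adamts8 at 1.24. On average, Mmp23 stood at 0.23, Mmp17 at 0.28, Mmp16 at -0.27, Adamts12 at 0.00 and Timp1 at -0.10. In Thy the 6 differences named above by lowest p, those of Mmp19, Mmp3, Timp1, Adamts12, Mmp16 and Mmp13, kept their signs, at 1.12, 0.78, 0.91, -0.56, -0.43 and -1.15. Between SSC and Thy the same covariate gave 0.91 for Adamts19, 2.38 for Adamts3 and -0.48 for Mmp23.

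Genes that work beside the family gave few calls. A list of 32 related proteases and regulators, of which 29 were tested, held 1 gene that passed against Thy, both in SSC and in CSP, and 0 between SSC and CSP or for JUN. This was Adamtsl5, which encodes an ADAMTS-like matrix protein without a protease domain. It was lower than in Thy by -1.38 ± 0.25 in SSC (adjusted p = 0.0398) and by -1.57 ± 0.25 in CSP (adjusted p = 0.0100). Its relative Adamtsl4, a partner of fibrillin, stood at -1.07 ± 0.22 and -0.83 ± 0.22 (adjusted p = 0.0572 and 0.117). Reck, a membrane-anchored inhibitor of Mmp enzymes, had an average JUN difference of -0.71 ± 0.23 (adjusted p = 0.395). Against Thy, the median of this list was -0.25 in SSC and -0.06 in CSP, with -0.09 and -0.04 over all genes.

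Of 29 genes of matrix substrates 26 were tested, and 1 passed in any comparison. This was Vtn, which encodes the adhesive protein vitronectin and was lower in CSP than in Thy by -2.12 ± 0.43 (adjusted p = 0.0392). In SSC it stood at -1.73 ± 0.43 against Thy (adjusted p = 0.102). Col10a1 was 4.18 ± 1.35 higher in SSC than in Thy (adjusted p = 0.168), with the array values given beside those of Mmp13.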

How the data were processed

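Total RNA of 12 samples was hybridised to 1 array each. The authors deposited log2 values, made with RMA per the submitters' processing notes. Which software and settings were used is not stated. RMA compresses differences of dim probe sets. Of 45101 probe sets, 64 controls were left out, 932 carried several symbols and 9160 none in the platform annotation. All 37 members matched RefSeq genes by Entrez identifier, and 9 further symbols of the pattern were not analysed here, nor were scanner files or protein sequences.

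Genes were fitted with limma 3.58.1 in R 4.3.3 (lmFit, eBayes, two-sided) and adjusted by Benjamini-Hochberg over 12496 genes. JUN effects and their interaction came from a model of 6 group means (6 residual degrees of freedom). Population differences came from a model with terms for population and arm (8 residual degrees of freedom). The lists, members and alternatives were chosen with earlier results of these data known. Named genes are every tested member past the threshold, per comparison the 3 of lowest p in each direction, and a fixed set of Timp, Mmp and Adamts genes; the other members are named to account for all of them.

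Mouse numbers in the titles pair arrays of different populations, although for mice 3 and 7 the titles differ in form. Deviations of same-mouse arrays correlated across genes at -0.215 to 0.430. Statistics were tested on simulated data with independent noise in each array and no mouse effect. That test does not cover arrays that share a mouse. Alternatives covered filters, probe sets, centring, weights, covariates, blocks and left-out arrays.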

Additional observations from a re-analysis of the deposited data

Results flagged for a closer look

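In 78 sets of 4 arrays (each tested member in each population), 5 had 1 array standing far from the other 3, by a gap above Dixon's critical value for 4 samples, which chance alone exceeds in about 0.05 of sets. In SSC the array of mouse 4 with JUN was high in Adamts4, at 11.55 against 9.75 to 9.87, and low in Adamts5, at 10.75 against 12.18 to 12.44. In Thy the array of mouse 4 with JUN was low in Adamts12, at 10.64 against 11.92 to 12.11, and in Mmp16, at 10.07 against 11.02 to 11.08. In CSP the array of mouse 3 without JUN was high in Adamts9, at 10.87 against 10.39 to 10.46. With 78 sets examined, 5 is close to the number that chance gives. The 5 cases fall on 3 arrays.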

How the results depend on the processing

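Under 30 alternative settings, 45 named differences gave 1206 values. Of these, 1164 kept their direction and side of the threshold, 20 lost a call, 14 gained one and 8 changed direction. In the main fit 1 named difference had passed, that of Adamts16 between SSC and Thy, so most kept values stayed uncalled. A kept value can still move far, as Adamts12 for JUN in Thy did, from -0.73 to -0.08 without mouse 4. Gaps between JUN differences cannot change sign, and leaving out an array outside a comparison often left its estimate unchanged. With the poly-A controls as a covariate, Adamts12 stood at 0.32 for JUN in SSC and 0.00 averaged, and Timp1 at -0.10 averaged. Adamts8 for JUN in CSP was -0.38 without the array of mouse 3b and 1.42 without that of mouse 3. Without the 3 SSC arrays of differing title form, Adamts19, Mmp14 and Adamts4 stood at -0.11, 0.16 and 0.31 between SSC and CSP. The count of members called between SSC and Thy was 0 with no filter, with the mean of all probe sets, with a variance trend, with the poly-A covariate, without those 3 arrays and with the mouse as a fixed replicate block, 4 with array weights (Adamts16, Adamts19, Mmp13 and Mmp23), and 0 to 2 when arrays or mice were left out. Between CSP and Thy it was 5 with array weights (Adamts16, Adamts5, Mmp13, Mmp17 and Timp3) and 0 to 1 with arrays or mice left out, the 1 being Mmp13. For the averaged JUN effect it was 0 to 2 with arrays or mice left out, with Adamts12 (adjusted p = 0.0499) and Timp1 called without mouse 7, where JUN rests on mouse 4 alone and 505 genes passed in all. The causes were not tested. Replicate numbers join different mice across the arms, and with them as a block 0 members passed for JUN. Over all genes the mouse block left 4 calls between SSC and Thy, against 49. Choosing the probe set after the filter, an alternative added after seeing the data, kept every count of members. Centring moved the median of all genes by at most 0.092. Precision is limited by 2 arrays a group and by dim probe sets near background.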
